A study of Homo sapiens with 2 samples.

Results

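The primitive streak and early mesoderm factors described here are 10 genes for transcription factors that are switched on as cells leave pluripotency and form mesoderm. They are TBXT (formerly T), EOMES, TBX6, MIXL1, GSC, EVX1, LHX1, MESP1, MESP2 and MSGN1. They were chosen by name for that role, with earlier results of these data known. Each was found once among the 17397 genes of the deposited tables through its NCBI Gene number. The RNA-seq compared 1 library of wild-type (WT) cells with 1 library of MEIS2-/- cells, derived from H1, an established human embryonic stem cell (hESC) line, each collected at day 4 of hematopoietic differentiation. Both cultures were given 50 ng/ml activin A with 40 ng/ml BMP4 for 2 days and 40 ng/ml VEGF with 50 ng/ml bFGF for the next 2 days. The MEIS2-/- cells come from an H1 line in which both copies of MEIS2 were disrupted with CRISPR/Cas9 delivered by a lentivirus and selected with puromycin. Such lines were grown from single cells, and the labels do not say which clone was sequenced. No sorting of the sequenced cells is described.

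MEIS2 mRNA, the targeted gene, was at 10.85 FPKM in WT against 3.44 FPKM in MEIS2-/- cells (log2 fold change -1.63). FPKM is the number of fragments assigned to a gene scaled for transcript length and for the number of mapped fragments. Fold changes are MEIS2-/- over WT on the log2(FPKM + 0.1) scale, so the fold of weakly expressed genes is understated. They were computed for the 13075 genes that reached 1 FPKM in either library, whose median log2 fold change was 0.12. With 1 library per genotype there is no error for any value and no test, so a gene is only described as at least 2-fold higher or lower. The effect of genotype, that of the clone and its derivation, and the variation from culture to culture cannot be told apart. In bulk RNA, fewer cells of a type and less RNA per cell cannot be told apart either.

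The primitive streak is the groove through which cells of the early embryo pass to become mesoderm and endoderm. Nodal, WNT and BMP signals induce it, and culture with activin A (which acts on the Nodal receptors) and BMP4 imitates this step. TBXT, EOMES and MIXL1 come on first, GSC and LHX1 mark its anterior end and EVX1 its posterior end. MESP1, MESP2, TBX6 and MSGN1 mark the mesoderm that leaves the streak. MESP1 is the earliest marker of heart and vessel precursors, whereas TBX6, MSGN1 and MESP2 act in the paraxial mesoderm that forms the somites. These genes are transient and give way to lateral mesoderm, hemogenic endothelium and blood.

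Promoter windows of 250 bases before an annotated start were given by RefSeq on GRCh38.p14 for 8 of the 10 genes (for TBXT, at 2 starts), and MESP1 and LHX1 had none. They were searched on both strands for letters bound by factors of this step, and the letters were picked after the windows had been read, so their presence in these genes is a description only. These were AATCCACA for FOXH1, the DNA-binding partner of Nodal signaling, CTTTGAT for TCF/LEF, the end point of WNT signaling, AGGTGT for the T-box core, and TGACAG for MEIS proteins. Of 35116 windows of that length, 0.71% held the FOXH1 letters, 2.26% the TCF/LEF letters, 9.57% the T-box core and 13.03% the MEIS hexamer. The windows of 3 of the genes that hold such letters are shown, and that of EVX1, which also holds some, is described below. MIXL1 was higher and MESP2 lower in MEIS2-/- cells, and MSGN1 has no fold change. Capitals mark the letters found. MIXL1 is shown at chr1:226223414-226223617, plus strand, up to its first exon in GENCODE 29, with FOXH1 letters (read on the other strand) at its 5′ end and TCF/LEF letters near its 3′ end. MSGN1 is shown at chr2:17816210-17816459, plus strand, with 1 T-box core. MESP2 is shown at chr15:89776082-89776331, plus strand, with FOXH1 letters that overlap a T-box core, and a further T-box core downstream. The MESP2 window lies within the span of the gene in GENCODE 29, which places an earlier start, but outside its exons.
MIXL1: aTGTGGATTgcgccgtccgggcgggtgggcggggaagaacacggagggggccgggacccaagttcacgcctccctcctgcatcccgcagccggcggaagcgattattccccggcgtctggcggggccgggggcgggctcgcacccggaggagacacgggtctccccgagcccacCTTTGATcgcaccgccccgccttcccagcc
MSGN1: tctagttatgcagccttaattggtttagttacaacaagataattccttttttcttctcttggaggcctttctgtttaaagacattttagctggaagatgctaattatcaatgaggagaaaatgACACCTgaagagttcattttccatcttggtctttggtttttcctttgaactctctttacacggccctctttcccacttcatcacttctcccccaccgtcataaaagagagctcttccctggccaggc
MESP2: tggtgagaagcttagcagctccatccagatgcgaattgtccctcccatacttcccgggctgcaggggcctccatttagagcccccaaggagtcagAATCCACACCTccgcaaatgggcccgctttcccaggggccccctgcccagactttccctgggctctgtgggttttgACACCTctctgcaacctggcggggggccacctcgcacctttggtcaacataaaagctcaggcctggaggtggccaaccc

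Among the other windows, that of EVX1 held a T-box core and the only MEIS hexamer, the latter 39 to 34 bases before the RefSeq start and inside the first exon of GENCODE 29. EOMES, TBXT, GSC and TBX6 held none of the 4 motifs. The EOMES window lies wholly inside the gene's own exons in GENCODE 29, and parts of the TBXT and GSC windows do. These matches describe letters in a short window and do not show that a protein binds there.

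Of the 10 factors, 9 passed the filter of 1 FPKM. TBXT and MIXL1 were at least 2-fold higher in MEIS2-/- cells. LHX1, MESP2, MESP1, TBX6 and GSC were at least 2-fold lower. EVX1 and EOMES, the latter an early streak factor like TBXT and MIXL1, differed by less than 2-fold, and MSGN1 did not pass the filter. Thus 2 of 9 were higher, where 7.84% of all compared genes were, and 5 of 9 were lower, where 7.97% of all compared genes were. The median log2 fold change of the 9 was -1.34, and they ranged from -1.78 for LHX1 to 2.09 for TBXT. Rescaling the MEIS2-/- library by 0.923, so that well expressed genes center on 0, moved the median of all compared genes from 0.12 to 0.01 and left both counts at 2 and 5.

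**Figure D1:**
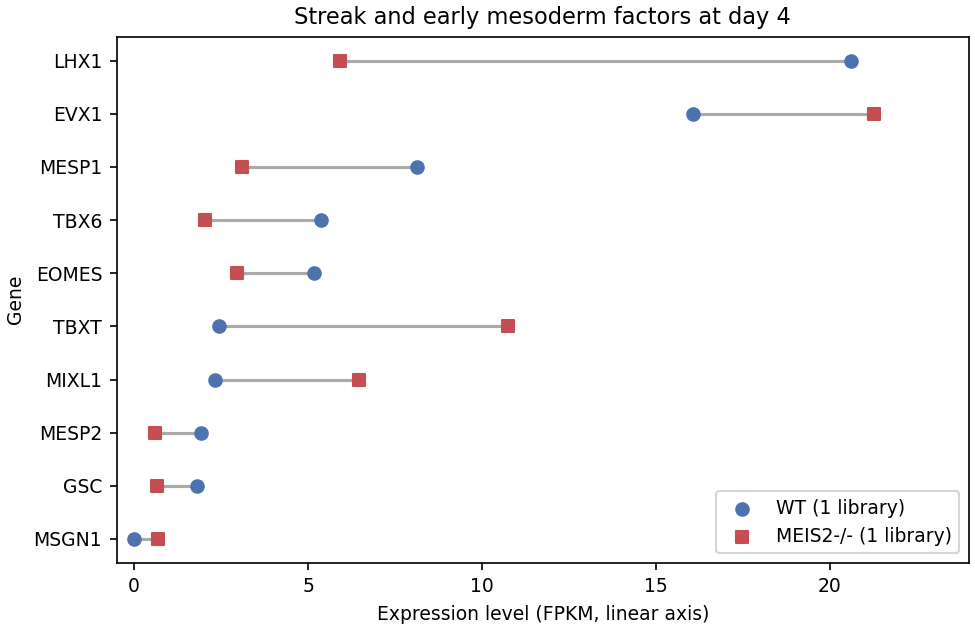
Expression in FPKM (linear horizontal axis) of each of the 10 factors in the WT library (circles) and the MEIS2-/- library (squares), ordered by the WT level, with a line joining the 2 values of a gene. TBXT and MIXL1 lie to the right in MEIS2-/- cells, with TBXT at 2.44 and 10.74 FPKM, while LHX1 lies far to the left, at 20.61 and 5.93 FPKM.

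Genes with low values pass 2-fold more often, so the factors were also read by their mean level. Of the 4 factors with a mean of 5 FPKM or more, TBXT was higher, LHX1 and MESP1 were lower, and EVX1 was under 2-fold. Among all compared genes at that level, 5.05% were at least 2-fold higher and 5.61% at least 2-fold lower. Of the 5 factors with a mean under 5 FPKM, MIXL1 was higher, TBX6, MESP2 and GSC were lower, and EOMES was under 2-fold. At that lower level, 13.6% of genes were at least 2-fold higher and 12.9% at least 2-fold lower.

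**Figure D2:**
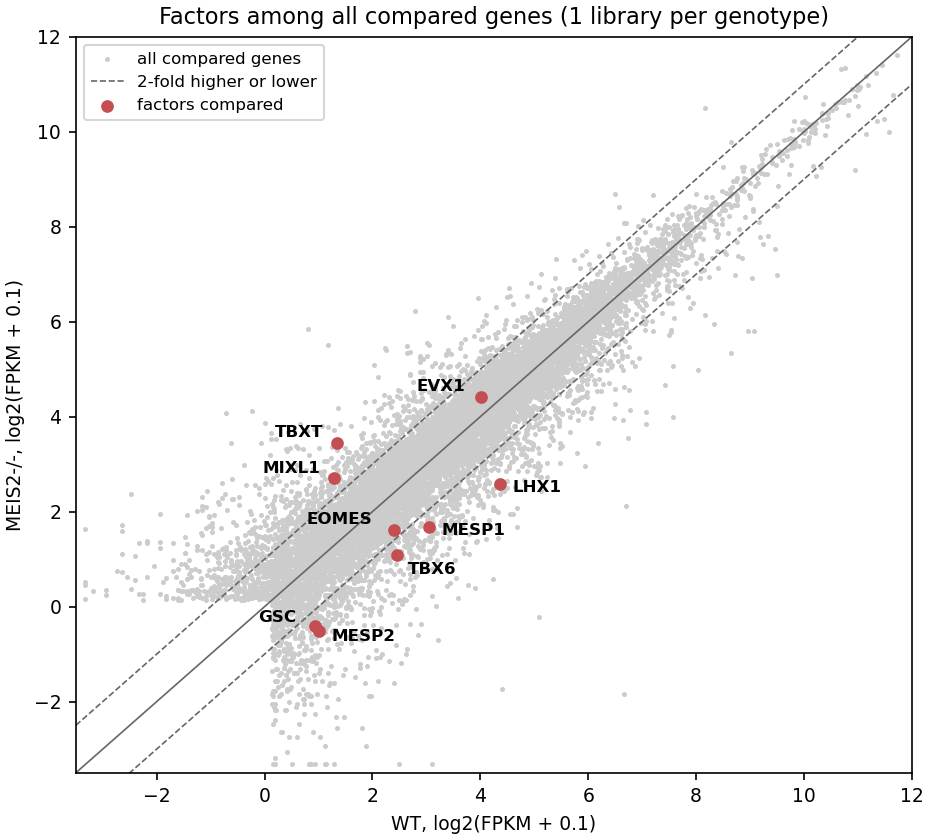
Each compared gene by its log2(FPKM + 0.1) in WT cells (horizontal axis) and MEIS2-/- cells (vertical axis), with the 9 factors compared in red, the line of equal expression (solid) and the lines of a 2-fold difference (dashed). TBXT and MIXL1 lie above the upper dashed line, LHX1, MESP1, TBX6, MESP2 and GSC below the lower one, and EVX1 and EOMES between them.

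The 3 T-box factors went different ways. TBXT encodes brachyury, the founding T-box protein, which drives exit from the streak and formation of posterior mesoderm and notochord. It was at 2.44 FPKM in WT against 10.74 FPKM in MEIS2-/- cells, 4.4 times the WT value and a log2 fold change of 2.09. From the highest fold change down, TBXT stood at place 169 of the 13075 compared genes. Its level was above that of 38.8% of listed genes in WT cells and 64.9% in MEIS2-/- cells. TBX6, which turns streak progenitors toward paraxial mesoderm, was the reverse case, at 5.38 FPKM in WT against 2.03 FPKM in MEIS2-/- cells (log2 fold change -1.36). EOMES, which acts with Nodal signals to specify endoderm and the earliest mesoderm, was at 5.18 FPKM in WT against 2.97 FPKM in MEIS2-/- cells (log2 fold change -0.78). TBXT was therefore below both other T-box factors in the WT library and above both in the MEIS2-/- library. The ratio of TBXT to TBX6 was 0.45 in WT cells and 5.29 in MEIS2-/- cells, and that of TBXT to EOMES was 0.47 and 3.62. The sum of all 3 was 13.0 FPKM in WT against 15.74 FPKM in MEIS2-/- cells. TBXT lies at chr6:166157656-166168700, EOMES at chr3:27715949-27722711 and TBX6 at chr16:30085793-30091887, each on the minus strand of GRCh38 as annotated by GENCODE 29, and none shares exonic bases with another annotated gene.

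Among the 4 homeobox factors, MIXL1 was higher, LHX1 and GSC were lower, and EVX1 was nearly level. MIXL1, a paired-type factor induced by Nodal and BMP signals in the streak, was at 2.33 FPKM in WT against 6.47 FPKM in MEIS2-/- cells (log2 fold change 1.43). GSC (goosecoid), the marker of the organizer at the anterior end of the streak, was at 1.80 FPKM in WT against 0.65 FPKM in MEIS2-/- cells (log2 fold change -1.34). MIXL1 and GSC thus stood close together in the WT library, with a ratio of 1.29, and apart in the MEIS2-/- library, with a ratio of 9.95. LHX1, a LIM-domain factor needed for head organizer activity and later expressed in intermediate mesoderm, was at 20.61 FPKM in WT against 5.93 FPKM in MEIS2-/- cells. Its log2 fold change of -1.78 was the lowest of the 9, at place 337 from the bottom of all compared genes. LHX1 was the most highly expressed factor in the WT library and the fourth in the MEIS2-/- library. EVX1, an even-skipped homologue of the posterior streak, was at 16.06 FPKM in WT against 21.27 FPKM in MEIS2-/- cells (log2 fold change 0.40), and ranked highest in the latter. The ratio of EVX1 to LHX1 was 0.78 in WT cells and 3.59 in MEIS2-/- cells.

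On GRCh38 as annotated by GENCODE 29, MIXL1 lies at chr1:226223618-226227054, EVX1 at chr7:27242700-27250493 and LHX1 at chr17:36936785-36944612, on the plus strand, and GSC at chr14:94768216-94770230 on the minus strand. EVX1 shares 532 exonic bases (15.9%) with the antisense gene EVX1-AS, and LHX1 shares 367 (7.5%) with the antisense gene AC243773.1. Counting by strand is not stated, so reads from these stretches cannot be told apart, and the values of EVX1 and LHX1 are less certain for that reason.

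The 3 bHLH factors were the least expressed family. MESP1, the earliest marker of cardiovascular mesoderm, was at 8.12 FPKM in WT against 3.09 FPKM in MEIS2-/- cells, 38.1% of the WT value and a log2 fold change of -1.37. MESP2, its neighbor and paralogue, which sets somite boundaries, was at 1.92 FPKM in WT against 0.60 FPKM in MEIS2-/- cells (log2 fold change -1.53). The pair was lower by a similar factor, and the ratio of MESP1 to MESP2 was 4.23 in WT cells and 5.15 in MEIS2-/- cells. MSGN1 (mesogenin), which drives presomitic mesoderm, was listed at 0 FPKM in WT against 0.68 FPKM in MEIS2-/- cells. No fold change is given for MSGN1, since it is listed at 0 in 1 library and stayed under the filter. MESP1 (chr15:89748661-89751310, minus strand) and MESP2 (chr15:89760591-89778754, plus strand) are 9.3 kb apart in the same annotation. They share 26 stretches of 31 bases, 1.1% of those in MESP1, so reads from that part could be assigned to either gene. Of the other factors, MIXL1 shared 4.24% and TBX6 3.84% of such stretches with other genes, and EVX1 1.07%, LHX1 0.47% and TBXT 0.18%. MSGN1 lies at chr2:17816496-17817101 on the plus strand.

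The summed expression of the 10 factors differed by less than 2-fold, while its make-up shifted. The WT sum was 63.84 FPKM and the MEIS2-/- sum 54.43 FPKM, 85.3% of the WT value. LHX1 and EVX1 led in WT cells, with 32.3% and 25.2% of the sum. In MEIS2-/- cells EVX1 led with 39.1%, followed by TBXT with 19.7% and MIXL1 with 11.9%. LHX1 held 10.9% there, and TBXT and MIXL1 had held 3.8% and 3.6% in WT cells. By family, the homeobox genes held 63.9% and 63.1%, the T-box genes 20.4% and 28.9%, and the bHLH genes 15.7% and 8.0%, so the near-constant homeobox share covered opposite differences of its members. The order of the factors in WT cells was LHX1, EVX1, MESP1, TBX6, EOMES, TBXT, MIXL1, MESP2, GSC and MSGN1. In MEIS2-/- cells it was EVX1, TBXT, MIXL1, LHX1, MESP1, EOMES, TBX6, MSGN1, GSC and MESP2. Without replicates it is not known which neighbors in either order differ beyond their spread. TBXT and MIXL1 in WT cells, for example, were as close as 2.44 and 2.33 FPKM.

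**Figure D3:**
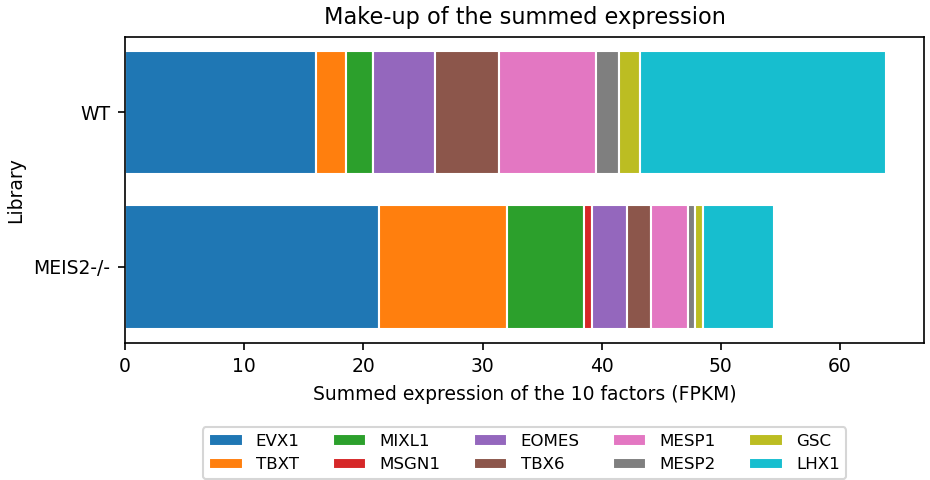
Stacked bars of the FPKM of the 10 factors in the WT and MEIS2-/- libraries (horizontal axis from 0, in FPKM), 1 color per gene. The bars end at 63.84 and 54.43 FPKM, with LHX1 at 32.3% of the WT bar and 10.9% of the MEIS2-/- bar, and TBXT at 3.8% and 19.7%.

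Genes that act around the streak were taken from 11 lists holding 75 genes, of which 53 were compared. In all, 10 were at least 2-fold higher and 15 at least 2-fold lower in MEIS2-/- cells, where 7.84% and 7.97% of all compared genes were. Pairs of values below give WT first, and numbers in parentheses are log2 fold changes. The signals that induce the streak differed in both directions. Of 9 inducing ligands 6 were compared, 2 of them higher and 2 lower, with a median log2 fold change of -0.32. NODAL, the ligand that starts the streak, was at 1.38 FPKM in WT against 7.27 FPKM in MEIS2-/- cells (log2 fold change 2.32). FGF8, needed for cells to move away from the streak, was at 0.91 and 2.59 FPKM, a log2 fold change of 1.41. GDF3, a Nodal-related ligand, was at 5.42 and 0.87 FPKM (-2.51), and BMP4 at 272.89 and 134.75 FPKM (-1.02), just past 2-fold. FGF17 was under 2-fold at 8.90 and 6.23 FPKM (-0.51). The Nodal co-receptor TDGF1, listed as CRIPTO, and the Nodal partner FOXH1 both differed by less than 2-fold, with log2 fold changes of -0.26 and -0.30. Of 4 secreted inhibitors, with a median of 0.40, DKK1, a WNT inhibitor, was higher at 2.75 and 8.10 FPKM (1.52), while the Nodal inhibitors LEFTY1 (0.57) and LEFTY2 (0.22) were under 2-fold.

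Among genes placed along the streak, several posterior ones were higher, while anterior ones differed in both directions. Of 6 posterior streak and tail factors 4 were compared and 3 were higher, with a median log2 fold change of 2.33. The caudal factor CDX1 was at 0.99 FPKM in WT against 12.44 FPKM in MEIS2-/- cells (3.52). Its relative CDX2 was at 4.83 and 21.24 FPKM (2.11), and NKX1-2, a homeobox gene of the caudal epiblast, at 7.98 and 46.91 FPKM (2.54). The list also holds SP5, a WNT target expressed in the streak, which went the other way, at 98.28 and 50.08 FPKM (-0.97). Of 8 genes of the anterior streak, node and definitive endoderm 7 were compared, 3 lower and 1 higher, with a median of -0.59. Whatever the size of the difference, 3 of the 7 were above their WT value and 4 below it. HHEX, a factor of anterior endoderm and of blood and endothelial precursors, was at 18.74 and 4.17 FPKM (-2.14). OTX2, a head factor, was at 11.38 and 3.30 FPKM (-1.76), and CHRD, the BMP inhibitor chordin of the organizer, at 6.78 and 2.93 FPKM (-1.18). SHH, a signal of node and notochord, was at 0.83 and 5.57 FPKM (2.61). SOX17, an endoderm factor also found in hemogenic endothelium, was under 2-fold at 141.01 and 264.03 FPKM (0.90).

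Downstream of the streak, more paraxial genes were lower than higher, and of the paraxial factors above TBX6 and MESP2 were lower, while MSGN1 was listed at 0 in WT and 0.68 FPKM in MEIS2-/- cells. Of 13 paraxial mesoderm and segmentation genes 9 were compared, 5 of them lower and 1 higher, with a median log2 fold change of -1.40. Among all compared genes 7.97% were lower and 7.84% higher, and among those with a mean under 5 FPKM 12.9% and 13.6%. The oscillating segmentation repressor HES7 was at 9.24 FPKM in WT against 0.51 FPKM in MEIS2-/- cells (-3.94). DLL3, a Notch ligand of presomitic mesoderm, was at 37.74 and 8.09 FPKM (-2.21), and TCF15, a bHLH factor of somites, at 3.98 and 1.37 FPKM (-1.47). FOXC1, a forkhead factor of the same mesoderm, had a log2 fold change of -1.43 and, like TCF15, was under 5 FPKM in both libraries. DLL1, another Notch ligand of the same tissue, was higher at 5.40 and 15.47 FPKM (286.5% of the WT value). All 7 lateral mesoderm genes were below their WT value and 2 passed the 2-fold line, with a median of -0.75. These were ETV2, the inducer of endothelial and blood fate, at 109.62 and 17.54 FPKM (-2.64), and the VEGF receptor gene KDR at 323.77 and 61.98 FPKM (-2.38). FOXF1, APLNR and PDGFRA were under 2-fold at -0.99, -0.75 and -0.45. Among the intermediate mesoderm genes, PAX2 was at 0.91 and 1.92 FPKM, exactly at the 2-fold line on the log2(FPKM + 0.1) scale, while LHX1, which later marks this tissue, was lower.

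Of 4 genes of the epithelial to mesenchymal transition by which cells leave the streak, SNAI1 was lower and CDH1 higher. SNAI1, a repressor of E-cadherin, was at 38.74 FPKM in WT against 15.65 FPKM in MEIS2-/- cells (-1.30), and CDH1, which encodes E-cadherin, at 10.68 and 33.35 FPKM (1.63). SNAI2 (-0.78) and CDH2 (0.09) were under 2-fold. Of 14 other T-box genes 8 were compared and none was at least 2-fold higher, with a median of -0.36. TBX1 and TBX20, factors of pharyngeal and cardiac mesoderm, were lower at -1.77 and -1.24, and TBX3, the most highly expressed of the family, was at 63.48 and 62.03 FPKM. The closest paralogues of EVX1, GSC and LHX1 (EVX2, GSC2 and LHX5) were all under 1 FPKM in both libraries.

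Markers of other cell types also differed between the libraries, some higher and some lower in MEIS2-/- cells. For all compared genes, the shares at least 2-fold higher and lower were 7.84% and 7.97%. Of 7 pluripotency genes 6 were compared and 3 were higher, with a sum of 613.84 FPKM in WT against 1877 FPKM in MEIS2-/- cells, while SOX2, a defining gene, was at 0.09 and 0.15 FPKM. Most of that difference in sum was POU5F1, at 285.65 and 1454 FPKM. Whatever the size of the difference, 5 of the 6 compared were above their WT value. The other, DNMT3B, was at 76.91 and 45.35 FPKM. Of 10 germ cell genes 9 are analysed here, 8 were compared and 6 were higher, with sums of 78.67 and 274.63 FPKM, and the later germ cell gene DDX4 was at 0.10 and 0 FPKM. TBXT is also expressed in the precursors of human germ cells, and NANOS3 and TFAP2C, which mark them, were at 24.39 and 83.28 FPKM and at 10.41 and 68.29 FPKM. DPPA3, also on the germ cell list, was under 2-fold at 5.9 and 4.71 FPKM (-0.32). All 7 visceral endoderm genes were compared and 6 were higher, with sums of 423.72 and 945.24 FPKM, most of which was APOA1, at 401.38 and 879.13 FPKM. Of 6 amnion genes 4 were higher, with sums of 71.48 and 115.19 FPKM. Most of the WT sum was GATA3, which was level at 55.06 and 55.4 FPKM. GABRP was at 1.06 and 11.42 FPKM (3.31), and VTCN1 at 0.37 and 4.15 FPKM (3.18). Of 7 endothelium genes 5 were lower, with sums of 99.56 and 34.25 FPKM. Of 7 blood genes 4 were compared, 1 higher and 1 lower, with sums of 14.48 and 10.39 FPKM and HBZ at 0 in WT cells. None of the 3 neuroectoderm genes analysed here reached 1 FPKM, with SOX3 and ZIC1 at 0 in WT cells. The part of these cell types in the differences of the 10 factors was not tested.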

How the data were processed

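RNA-seq of 1 WT and 1 MEIS2-/- library was performed by BGI. For each library the authors deposited 1 table of FPKM by gene, with 2 decimals. The submitters' processing notes name RSEM, Bowtie, BWA and hg19, with no versions or roles. Genes listed by NCBI Gene number were given symbols through RefSeq (17365 of 17397), older symbols included.

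The tables hold no counts. Low values (0.05 to 0.3 FPKM) of 819 and 867 genes with 1 transcript did not fall on whole reads (highest agreement 0.088 and 0.089, where 1 is complete). This check used full transcript lengths and would miss steps set by effective lengths. Depth is therefore unknown, and no counting interval is given.

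Log2 fold changes used a pseudocount of 0.1 FPKM, a filter of 1 FPKM in at least 1 library and a 2-fold line, with values as deposited. No test was possible. The computation was tested on simulated data with planted fold differences. The 10 factors and all lists were chosen with earlier results of these data known, and the motif letters after the windows had been read. The text names all 10 factors, MEIS2 and, per list, up to 5 genes by size of the log2 fold change among compared genes that differed by at least 2-fold or reached 5 FPKM. EVX2, GSC2, LHX5, SOX2, DDX4, DPPA3, HBZ, SOX3, ZIC1, APOA1 and GATA3 fall outside this rule and were named after their values were seen. A few listed genes (DAZL, SOX1 and HES5) were not analysed here. One listed gene is not reported here.

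Gene positions, exon overlaps and shared stretches of 31 bases came from GENCODE 29 on GRCh38, a later build than that of the deposited values, which carry no coordinates. Alternatives were pseudocounts of 1 and 0.01 FPKM, no filter, a filter of 5 FPKM, lines of 1.5-fold and 4-fold, and rescaling to a median log2 ratio of 0 or with TMM (a trimmed mean of log2 ratios, 30% of ratios and 5% of means trimmed per side). Python 3.11.15, numpy 2.4.6, pandas 2.3.3 and matplotlib 3.10.9 were used.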

Additional observations from a re-analysis of the deposited data

How the results depend on the processing

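With 8 alternatives, 82 values were recomputed for the factors and the related lists, and no fold change or median changed sign. Of the 82, 76 stayed on their side of the 2-fold line (single factors) or moved by no more than 1.5-fold (counts and medians). The other 6 were smaller counts or factors that fell inside the 2-fold line. A pseudocount of 1 FPKM left 3 factors at least 2-fold lower, since GSC moved to -0.76 and MESP2 to -0.87, where 5.3% of all compared genes were. A filter of 5 FPKM also left 3, because GSC and MESP2 were then not compared, where 6.41% were. At 4-fold, 1 factor was higher (TBXT) and 0 were lower, where 1.48% and 1.84% of all compared genes were. At 1.5-fold, 2 were higher and 6 lower, where 18.0% and 14.46% were. Without a filter MSGN1, listed at 0 in WT cells, raised the higher factors to 3, where 9.01% were. The median log2 fold change of the factors ran from -1.44 to -0.76 and was inside the 2-fold line with a pseudocount of 1 FPKM (-0.76) and with a filter of 5 FPKM (-0.78). No factor changed sign over the pseudocounts and scalings, where TBXT ran from 1.77 to 2.13 and MIXL1 from 1.17 to 1.47. With either scaling, 9 genes of the related lists were at least 2-fold higher and 17 at least 2-fold lower, where 6.37% and 9.15% of all compared genes were after rescaling to the median and 6.52% and 9.02% with TMM.

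No paired analysis was possible because each genotype has 1 library. Depth is unknown, so the precision of GSC, MESP2 and MSGN1, each under 2 FPKM in both libraries, cannot be given.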
